A study of Mus musculus with 4 samples.

Results

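The sites described here are the genomic positions where both replicates of a chromatin immunoprecipitation sequencing (ChIP-seq) experiment on the receptor NR6A1 gave a strong peak. Each replicate 1 peak was paired with the replicate 2 peak that it overlapped over the longest stretch, by at least 1 bp, and a pair was kept when the authors' peak score was 1000 or more in both lists. The score has no unit, was taken as a log-transformed p-value of the peak caller, and depends on the depth and background of its own library. The rule left 998 strong pairs out of 9190 partner pairs, drawn from 21507 peaks in replicate 1 and 16160 in replicate 2. The pairs were chosen by the score, so scores below describe them and carry no test. Widths and positions come from the same peak calls and are also given as a description.

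The cells were a mesenchymal stem cell line of C57BL/6 mouse origin, immortalized and monoclonal, with Dicer f/f alleles and called Dicer WT. Both libraries came from cells in which a pMMP-puro retrovirus expressed NR6A1 with Flag and HA tags, kept under puromycin, fixed with formaldehyde for 10 min and precipitated with 5 µg of an antibody to HA. The line is 1 clone, and the protein is expressed from a retrovirus, so the sites are those of the introduced tagged receptor. The labels also list 2 vector libraries with the same line and antibody. Values for them were not analysed here, so none of the counts below has a background of the HA antibody beside it. The labels do not say whether the replicates were separate cultures.

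NR6A1, also called germ cell nuclear factor, is an orphan member of the nuclear receptor family that binds DNA as a dimer. Its classical motif is a direct repeat of the half-site AGGTCA with no base between the repeats, and it is best known as a repressor of the pluripotency factor Pou5f1 when embryonic stem cells differentiate. In the adult it is known mainly from germ cells. Its gene is named in the series title as a target of the microRNA let-7, which also represses Hmga2, Lin28 and the Igf2bp genes.

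For known loci near the strong pairs, a list of 45 loci of mesenchymal, developmental and growth-control interest was used, with positions on mm9 from general knowledge of that build, rounded to 1 kb. No annotation of mm9 was used to check these positions, so exons, introns and the nearest gene of each pair were not assigned. The sequences upstream of 3 listed genes are shown because a strong pair lay at or near their start. They are the 250 bases before the start, from RefSeq on GRCm38.p6, on the strand of the gene and given 5′ to 3′. Of the 2 Vegfa windows in the table, the one farthest upstream is shown. Capitals mark the half-site AGGTCA, read on both strands.
Malat1 (minus strand): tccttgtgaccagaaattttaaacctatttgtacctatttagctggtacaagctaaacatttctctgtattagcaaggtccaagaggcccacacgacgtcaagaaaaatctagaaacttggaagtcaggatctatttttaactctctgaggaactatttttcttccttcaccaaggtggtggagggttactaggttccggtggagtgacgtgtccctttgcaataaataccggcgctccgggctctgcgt
Vegfa (minus strand): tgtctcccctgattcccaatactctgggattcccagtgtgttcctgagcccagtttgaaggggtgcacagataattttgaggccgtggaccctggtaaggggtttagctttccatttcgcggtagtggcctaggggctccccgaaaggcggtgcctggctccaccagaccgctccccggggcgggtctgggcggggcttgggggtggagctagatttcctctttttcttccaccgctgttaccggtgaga
Runx2 (minus strand): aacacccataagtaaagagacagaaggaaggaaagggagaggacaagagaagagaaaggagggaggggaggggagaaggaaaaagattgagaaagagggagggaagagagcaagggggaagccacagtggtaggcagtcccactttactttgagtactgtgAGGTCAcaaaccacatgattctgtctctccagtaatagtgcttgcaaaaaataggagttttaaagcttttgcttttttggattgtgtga
At Malat1, an abundant nuclear long noncoding RNA, a strong pair lay at the start to within the rounding of its position, on chromosome 19 at 5803027 to 5803955 in replicate 1 and 5802240 to 5803965 in replicate 2. Its scores were 1269.27 and 1496.91. Whether the position used for Malat1 and for the neighbouring Neat1 belongs to mm9 or to GRCm38 could not be checked here, and their results rest on it. At Vegfa, a growth factor of blood vessels, the pair on chromosome 17 at 46169067 to 46170064 and 46168990 to 46170035 was likewise at the start, with scores of 1795.02 and 1557.5. At Runx2, the master factor of bone formation, the pair on chromosome 17 at 44951205 to 44952248 and 44951270 to 44952343 lay about 1 kb upstream of the start, with scores of 1608.91 and 1551.14. The span used for Runx2 differed in length by 113.8 kb from that in the GRCm38 gene table, the most of all listed genes. Col1a2, a chain of fibrillar collagen type I, had a strong pair about 2 kb past its start, inside the gene, on chromosome 6 at 4456765 to 4458014 and 4456702 to 4457912, with scores of 2495.12 and 2121.84. Of the 4 upstream windows, only that of Runx2 held the half-site AGGTCA, once. The half-site was in 14.0% of 32851 RefSeq promoter windows of the same length. None of the 4 held the extended half-site TCAAGGTCA, which was in 0.387% of those windows, or the direct repeat of AGGTCA with no base between, which was in 2 of them. Each longer motif contains the shorter one. These windows are only 250 bases long, and the peaks extend beyond them.

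A score of 1000 or more was reached by 15.9% of the replicate 1 peaks (3424) and by 14.0% of the replicate 2 peaks (2264). Among partner pairs, both scores reached it in 10.9% (95% Wilson interval 10.2 to 11.5%, counting error over pairs only). The 998 strong pairs took up 29.1% of the strong replicate 1 peaks. They used 992 different replicate 2 peaks, which is 43.8% of the strong ones in that list, because 6 wide replicate 2 peaks were each the partner of 2 replicate 1 peaks. Of the other strong replicate 1 peaks, 1133 had a partner scoring below 1000 and 1293 had no partner. In 1078 pairs only the replicate 2 peak passed the limit, and 280 strong replicate 2 peaks had no partner. Some replicate 2 peaks belong to more than 1 pair, so these counts do not add up to the strong replicate 2 peaks. Scores did not break off at the limit. The pairs just inside it had lower scores of 1000.39, 1000.74 and 1001.04, and those just outside had 999.85, 999.71 and 999.04.

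**Figure D1:**
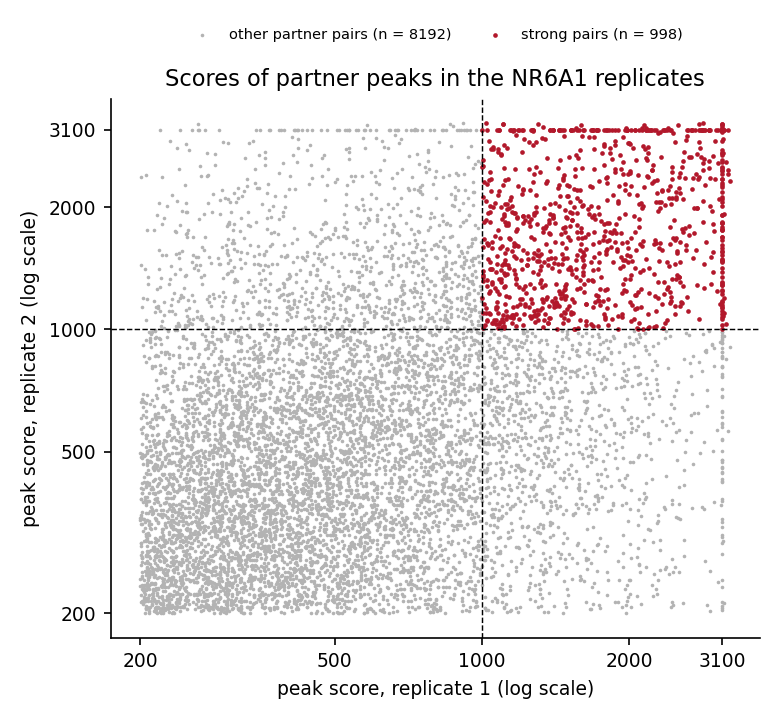
Peak scores of the 9190 partner pairs, replicate 1 on the x axis and replicate 2 on the y axis, both on log scales and without unit. Red points are the 998 strong pairs beyond both dashed lines at 1000, grey points the other 8192, and the rows of points at 3100 are tied scores.

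Within the strong pairs the scores ran up to 3213.24 in replicate 1 and 3219.64 in replicate 2, with medians of 1707 and 1777 (quartiles 1284 and 2441 in replicate 1, 1308 and 2538 in replicate 2). Scores of exactly 3100 recur in both lists, and their order against higher scores is not read as strength. At least 1 score was at 3100 or more in 239 strong pairs. Of these, 53 reached it in both lists, which is 0.577% of all partner pairs, while in 78 just replicate 1 did and in 108 just replicate 2. There were 429 pairs at 1500 or more in both lists and 215 at 2000 or more. The scores were within 2-fold of each other in 86.3% of the strong pairs, which the common limit and the ties at 3100 favour by construction. On the log2 scale the ratio (replicate 1 over 2) had a median of 0.00 and an SD of 0.64. Across the 759 strong pairs with both scores below 3100, the Spearman correlation of the scores was 0.18, a value that describes peaks of 1 pair of libraries over a narrowed range and carries no p.

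The limit of 1000 and the ties at 3100 fix how far the scores of a strong pair can differ, so the pairs least alike had 1 score near the limit and the other at 3100 or more, and their ratios are not read as strength. On chromosome 3 at 151695202 to 151696158, replicate 1 scored 3100 and replicate 2 scored 1004.4. On chromosome 5 at 32165045 to 32165851 the order was turned round, with 1020.54 in replicate 1 and 3214.67 in replicate 2. Replicate 1 had the higher score also on chromosome 4 at 144519423 to 144520879, with 3151.8 against 1031.1. The same held on chromosome 9 at 109751796 to 109752519, with 3100 against 1027.38. Replicate 2 had the higher score on chromosome 19 at 19182426 to 19183059, with 3100 against 1001.12. It had it also on chromosome 4 at 33348161 to 33348781, with 3100 against 1023.24.

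Strong pairs were wide. Their median width was 839 bp in replicate 1 (quartiles 687 and 1040, SD 291 over 998 peaks) and 929 bp in replicate 2 (quartiles 776 and 1187, SD 405). The other 8192 partner pairs had medians of 555 and 645 bp. Both widths were 1000 bp or more in 22.7% of the strong pairs (20.2 to 25.4%) and in 2.14% of the other pairs (1.85 to 2.47%). Strong peaks without a partner were also wider than these, at medians of 781 bp in replicate 1 and 784 bp in replicate 2. In pairs strong in 1 list only, the strong peak had a median width of 812 bp in replicate 1 and 828 bp in replicate 2. Across all 9190 pairs the Spearman correlation of score with width was 0.73 in replicate 1 and 0.65 in replicate 2, a description across peaks of 1 library each. Between the lists, the Spearman correlation of the widths was 0.61 within the strong pairs and 0.45 over all partner pairs. That of the scores was 0.28 and 0.38, where the former is taken on scores limited at 1000 and tied at 3100. The replicate 2 peak was the wider one in 72.8% of the strong pairs and in 70.5% of the other pairs. Among the other pairs, it was wider in 25.7% of those strong in replicate 1 only and 96.3% of those strong in replicate 2 only. Where neither peak was strong, it was wider in 74.4%. Some replicate 2 peaks are counted in more than 1 of these pairs.

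**Figure D2:**
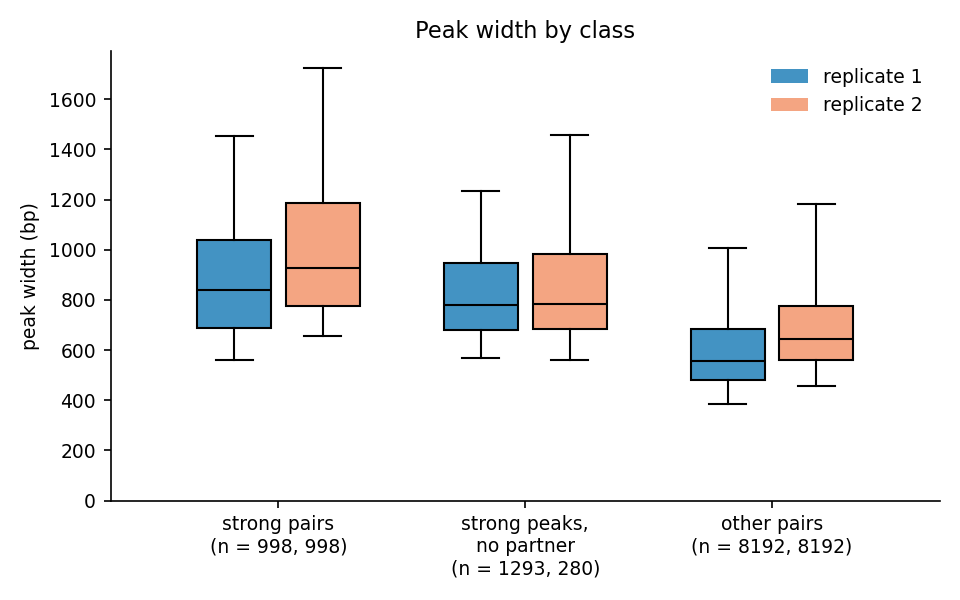
Peak width in bp (y axis) of strong pairs, of strong peaks with no partner and of the other partner pairs, in replicate 1 (blue) and replicate 2 (orange). Boxes span the quartiles with the median as a line and whiskers the central 90%; strong peaks have higher medians than other pairs with or without a partner.

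By the mean of both widths, the widest strong pair lay on chromosome 5 at 143582953 to 143586246 in replicate 1 and 143582244 to 143586274 in replicate 2, with widths of 3294 and 4031 bp and scores of 3100 in both. It was about 78 kb below Actb, the gene of beta actin. Next came a pair on chromosome 10 at 126727241 to 126728698, whose replicate 2 peak was 5245 bp wide against 1458 bp in replicate 1, with scores of 1223.77 and 1858.73. A pair on chromosome 4 at 82150557 to 82153113 was 2557 and 2826 bp wide and scored 3100 in both lists. The fourth, on chromosome 19 at 5845073 to 5846317 (1245 bp) and 5842494 to 5846396 (3903 bp), lay at the high-coordinate end of Neat1 to within the rounding of its position; Neat1 is the long noncoding RNA that builds nuclear paraspeckles. The fifth, on chromosome 19 at 3323781 to 3325836, was 2056 and 2362 bp wide, with scores of 2781.83 and 3197.13. Only 3 strong pairs were 2000 bp or more in both lists.

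Among pairs at 3100 in both lists, the next widest was on chromosome 6 at 57483983 to 57486006, with 2024 and 1854 bp. It was followed by chromosome 9 at 34799656 to 34800300, with 645 and 2827 bp, and by chromosome 2 at 173177063 to 173178719, with 1657 and 1615 bp. By the mean of both widths, the narrowest strong pair, on chromosome 15 at 74849964 to 74850428, was 465 and 525 bp wide and scored 1260.33 and 1685.77. The next was on chromosome 1 at 159376468 to 159376977, with 510 and 548 bp. The last of the 3 narrowest was on chromosome 5 at 31223566 to 31224063, with 498 and 595 bp.

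Partner peaks were closely centred. The distance between the midpoints of strong pairs had a median of 41.0 bp, and 787 or 78.9% lay within 100 bp (76.2 to 81.3%). In the other partner pairs the median was 36.5 bp, with 81.9% within 100 bp (81.1 to 82.7%). Among these others, the share was 75.6% where only replicate 1 passed the limit and 69.2% where only replicate 2 did. It was 85.4% where neither passed. Some replicate 2 peaks are in more than 1 pair and cannot be centred on each of their partners. The part of such pairs in these shares was not tested. Because the strong pairs were wider, their offset was smaller as a share of the mean width, at 4.51% against 6.10% in all the other pairs. Neither list was shifted along the chromosome. The signed distance from replicate 1 to replicate 2 had a median of 0.75 bp. Over all strong pairs, the replicate 2 peak began a median of 38.0 bp earlier and ended a median of 46.5 bp later. In 54.3% of strong pairs the replicate 1 peak lay wholly inside the replicate 2 peak, and the reverse held in 11.4%. By bands of the lower score, the median offset was 39.5 bp from 1000 to 1500, 42.2 bp from 1500 to 2000, 44.5 bp from 2000 to 3100 and 39.5 bp at 3100 or more. The median replicate 1 width over the same bands was 789, 852, 881 and 1062 bp.

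In 5 strong pairs the midpoints coincided. One of these scored 3100 in both lists and lay inside Hmga2, a chromatin protein of embryonic mesenchyme and a classical let-7 target, on chromosome 10 at 119858845 to 119859648 and 119858837 to 119859656. Another lay on chromosome 12 at 80453181 to 80453943, where both scores were close to the limit at 1003.88 and 1005.73. A further one lay on chromosome 14 at 23903860 to 23904542. Offsets above 500 bp occurred in 15 strong pairs. The greatest, 1250 bp, was that of the pair at Neat1 described above. A pair on chromosome 8 had an offset of 994.5 bp, at 129119969 to 129120757 in replicate 1 and 129117807 to 129120930 in replicate 2, and the pair on chromosome 9 at 34799656 had 857 bp. In these 3 the replicate 2 peak was the wider one, at 3903, 3124 and 2827 bp.

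For spacing, pairs that share a replicate 2 peak were counted as 1 site, which gave 992 strong sites among 9020 shared sites. Most strong sites stood apart from each other. The median gap to the nearest other strong site was 334 kb (quartiles 67.4 and 1170 kb), and 84 of 992 had one within 10 kb (8.47%, 6.89 to 10.4%). The other 8028 shared sites had a strong site within 10 kb in 5.58% (5.10 to 6.10%). Any other shared site, strong or not, lay within 10 kb of 38.6% of the strong sites (35.6 to 41.7%) and of 31.5% of the other shared sites (30.5 to 32.5%). A replicate 1 peak with no partner lay within 10 kb of 30.0% of the strong sites (27.3 to 33.0%) and of 27.7% of the others (26.7 to 28.7%). A replicate 2 peak with no partner lay within that distance in 27.5% (24.8 to 30.4%) and 21.3% (20.4 to 22.2%). The intervals cover counting error, and neighbouring peaks are not independent.

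**Figure D3:**
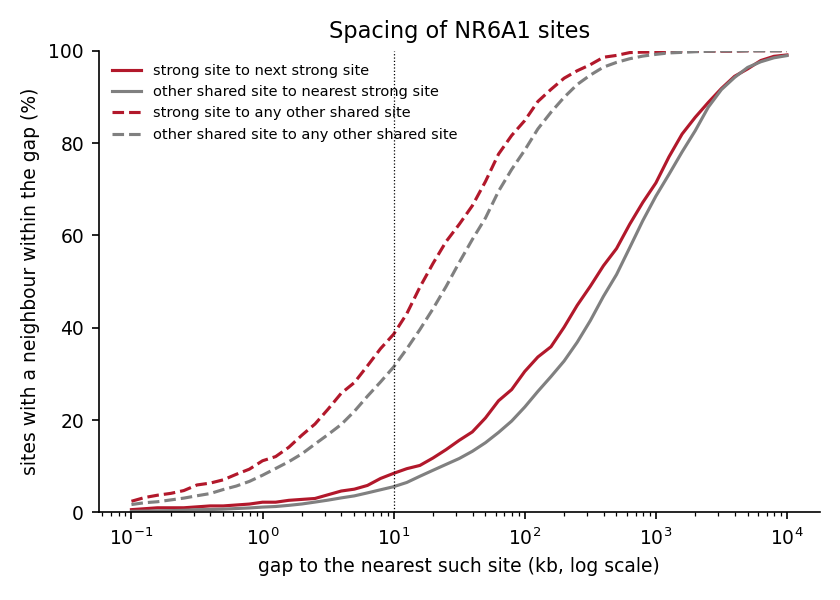
Cumulative share of sites (y axis, %) whose nearest neighbour lies within a given gap (x axis, kb, log scale), for strong sites (red) and other shared sites (grey), to the nearest strong site (solid) or to any other shared site (dashed). At the dotted line of 10 kb the solid curves stand at 8.47% and 5.58% and the dashed ones at 38.6% and 31.5%.

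The strength of the neighbour was then read. Where the next shared site along the chromosome was within 10 kb, it was strong in 16.1% of cases after a strong site (35 of 218, 11.8 to 21.5%) and in 14.3% after a site that was not strong (206 of 1445, 12.5 to 16.1%). Where it was farther away the shares were 11.0% (85 of 771) and 10.1% (664 of 6564), beside 11.0% over all shared sites. At either distance the share after a strong site differed from that after another site by less than the width of its interval.

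Chains of strong sites with gaps of at most 10 kb were short. There were 39 chains of 2, 2 chains of 3 and none longer, and 908 strong sites stood alone. One chain of 3 lay on chromosome 8 at 109721711 to 109733768, within 12.1 kb, with replicate 1 scores from 1886.7 to 3100 and replicate 2 scores from 1573.7 to 3100. The other lay on chromosome 10 at 66750328 to 66762667, within 12.3 kb, with scores from 2011.49 to 2493.16 and from 1174.19 to 2452.24. No weaker shared site lay inside either. The most compact chain of 2 was on chromosome 13 at 31856026 to 31857842, within 1.82 kb. Next were chromosome 18 at 44631044 to 44633191, within 2.15 kb, then chromosome 8 at 45178435 to 45180813, within 2.38 kb.

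Most windows of 1 Mb with any strong site held only 1. Among windows with any, 447 held 1 strong site, 136 held 2, 46 held 3 and 19 held 4. The highest count was 6, in 4 windows: 66 to 67 Mb on chromosome 10, 55 to 56 Mb on chromosome 18, 5 to 6 Mb on chromosome 19, which holds Malat1 and Neat1, and 117 to 118 Mb on chromosome 2, which holds Thbs1. These windows held 26, 22, 31 and 23 shared sites. Another 7 windows tied at 5 strong sites. They were 16 to 17, 67 to 68 and 80 to 81 Mb on chromosome 10, 25 to 26 Mb on chromosome 16, 32 to 33 Mb on chromosome 5, 129 to 130 Mb on chromosome 8 and 52 to 53 Mb on chromosome 6, which holds the Hoxa genes. In that order they held 13, 18, 13, 12, 14, 27 and 17 shared sites. Over all shared sites 11.0% were strong. These windows were picked for their counts of strong sites, which are high by that choice. At the other end, the most isolated strong site was on chromosome 8 at 4318887 to 4319720, 4286 kb from any other shared site, with scores of 1133.81 and 1994.35. The next was on chromosome 17 at 8475545 to 8476313, 1435 kb away. After it came chromosome 1 at 116570423 to 116571138, 1283 kb away.

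Strong pairs were found on all autosomes and on X. Chromosome 10 had the most, 88, followed by chromosome 2 with 84 and chromosome 15 with 75. Per Mb, chromosome 15 came first with 0.725 strong pairs, then chromosome 10 with 0.677, 17 with 0.609 and 19 with 0.587, and chromosome 12 was the sparsest autosome with 0.124. All partner pairs were also dense on chromosomes 15 and 10, with 5.56 and 5.03 per Mb, and sparse on chromosome 12, with 1.67. The share of partner pairs that were strong was 10.9% over all chromosomes, and the 95% Wilson interval of 18 of the 20 chromosomes included that share. The exceptions were chromosome 17, at 14.0% (58 of 415, 11.0 to 17.6%), and chromosome 10, at 13.5% (88 of 654, 11.1 to 16.3%), both above it. Among 20 intervals of 95%, some can miss the share from counting error alone. Neighbouring pairs are also not independent, which the intervals do not cover. At limits of 1500 and 2000 in both lists the share on chromosome 10 was 5.35% (3.87 to 7.35%) and 2.60% (1.63 to 4.12%), intervals that include the shares over all pairs, 4.67% and 2.34%. On chromosome 17 it was 7.95% (5.72 to 11.0%) at 1500, an interval above the overall share, and 2.41% (1.31 to 4.38%) at 2000, an interval that includes it. Chromosome 19, which had the densest partner pairs at 5.95 per Mb, had a share of 9.86% (7.21 to 13.4%).

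Chromosome X had 7 strong pairs among 102 partner pairs, 6.86% (3.36 to 13.5%), and 0.042 strong pairs per Mb. The autosomes had 0.400 per Mb, which is 9.53-fold more, while their density of all partner pairs was 6.00-fold that of X. The interval for the share on X includes the 10.9% of all pairs, so a lower share of strong pairs on X was not detectable with 102 pairs. Of the 24 strong replicate 1 peaks on X, 29.2% were in a strong pair, and of the 30 strong replicate 2 peaks, 23.3% were. One strong pair lay on an unplaced contig.

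**Figure D4:**
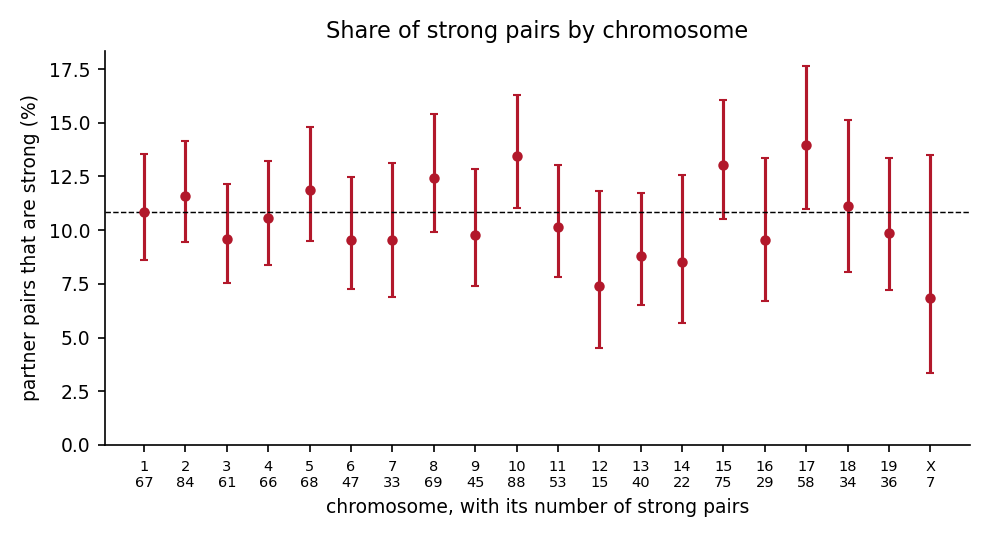
Share of partner pairs that are strong (y axis, %) on each chromosome (x axis, with the number of strong pairs below its name), as points with 95% Wilson intervals. The dashed line is the share over all pairs, 10.9%, which lies inside the interval of every chromosome except 10 and 17.

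Of the 45 listed loci, 24 had a strong pair within 250 kb and 43 had a partner pair of any score. In all, 47 of the 351 partner pairs near these loci were strong, 13.4% (10.2 to 17.4%), beside 10.9% over all partner pairs, a share inside that interval. Malat1 and Neat1 are neighbours and share the same 4 strong pairs, which are counted once here. Near them 4 of 22 partner pairs were strong, 18.2% (7.31 to 38.5%), an interval that includes 10.9%. Inside the 45 listed loci themselves, 9 had a strong pair and 31 a partner pair. The gene's strand was known for 30 loci, and in 4 of those a strong pair lay within 2 kb of the start, against 13 with any partner pair there. The share of all strong or partner pairs near gene starts was not computed, so these counts are not read as enrichment at starts. The counts are a description of these loci only.

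**Figure D5:**
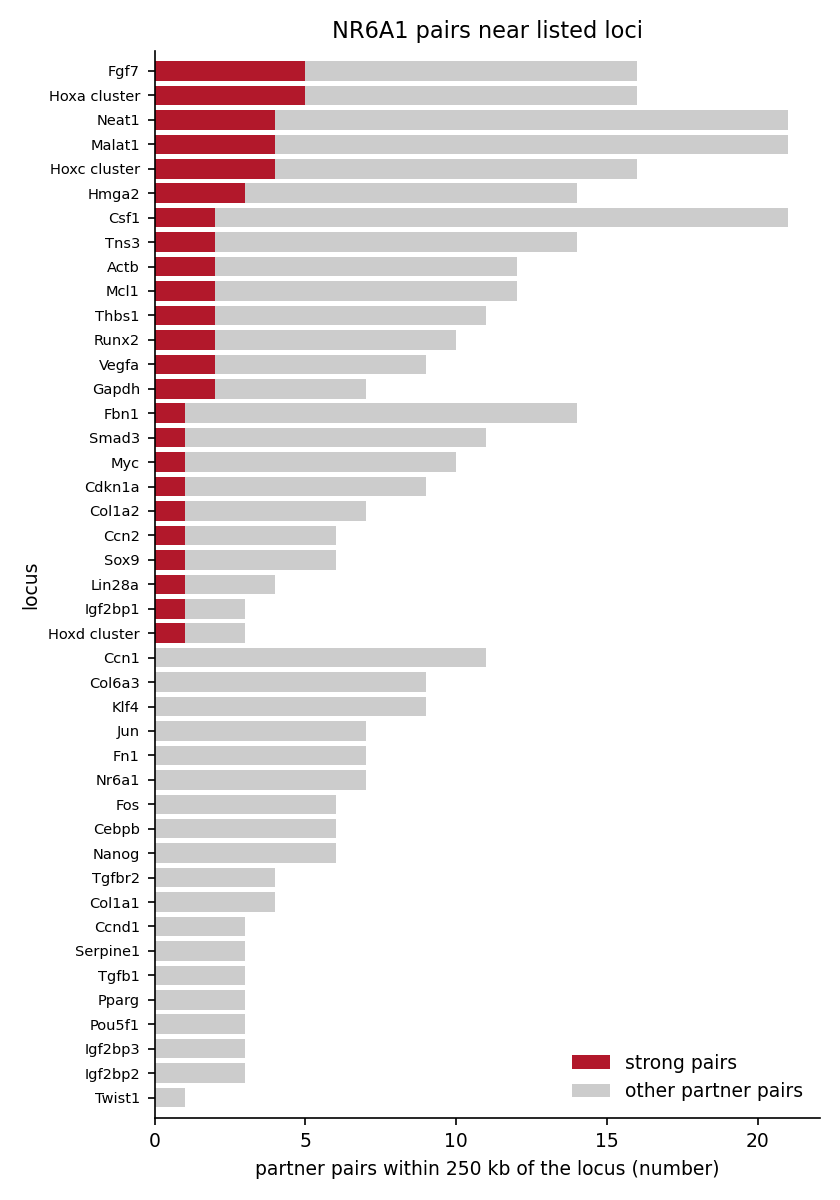
Number of partner pairs within 250 kb (x axis) of each listed locus that had any (y axis, 43 loci), split into strong pairs (red) and other partner pairs (grey). Fgf7 and the Hoxa cluster have 5 strong pairs each, and 19 of the loci shown have none.

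The Hox clusters hold the genes of positional identity along the body axis. The Hoxa cluster had 5 strong pairs among 16 partner pairs, all 5 inside it. The highest scores were 2834.45 and 2562.68 at 52189875 to 52191533 on chromosome 6, and 2186.07 and 2813.72 at 52206935 to 52207519. The others scored 1485.62 and 1892.14, 1683.86 and 1019.98, and 1006.52 and 1360.42. The Hoxc cluster had 3 strong pairs inside it. That at 102789913 to 102791456 on chromosome 15 scored 3100 and 2712.44, and replicate 1 peaks at 102828267 to 102828956 and 102829040 to 102830068 shared 1 replicate 2 peak of 2067 bp. The 2 replicate 1 peaks scored 1304.95 and 1103.47 and the shared peak 3194.4, a score above 3100. A further strong pair lay about 210 kb away, at 2402.99 and 2208.89. The Hoxd cluster had none inside, and its only strong pair within 250 kb was about 233 kb away, at 2861.86 and 2265.34. The Hoxb cluster had no partner pair within 250 kb, with 3 replicate 1 peaks and 2 replicate 2 peaks that did not overlap. Together 10 of 35 partner pairs near Hox clusters were strong, 28.6% (16.3 to 45.1%), beside 10.9% over all partner pairs. The 10 pairs include those that share 1 replicate 2 peak, and the loci were not drawn at random, so the share describes these clusters only.

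Among genes targeted by let-7, 3 of 6 had a strong pair within 250 kb, as did 24 of all 45 loci. In this group 5 of 27 partner pairs were strong, 18.5% (8.18 to 36.7%), an interval that includes the 10.9% of all partner pairs. Hmga2 had 3 of 14 partner pairs, 2 of them inside the gene. Besides the pair at 3100 in both lists, the one on chromosome 10 at 119867395 to 119868111 scored 1301.64 and 1571.3, and the third lay about 105 kb away. Igf2bp1, an oncofetal RNA-binding protein, had 1 strong pair about 178 kb away, with scores of 1797.29 and 2356.43. Lin28a, an RNA-binding protein that blocks let-7 processing, had 1 about 245 kb away, with scores of 1931.63 and 1074.82. Igf2bp2 and Igf2bp3 had 3 partner pairs each and no strong one, with the same doubt about the build of the Igf2bp2 position as for Malat1, and Lin28b had no partner pair. Nr6a1 itself had 7 partner pairs within 250 kb and no strong one. The Wilson interval of that share reaches 35.4%, so a share below 10.9% was not detectable. One of the 7 pairs lay about 1 kb from the start of Nr6a1.

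None of the pluripotency factors had a strong pair within 250 kb. Pou5f1, the classical target, had 3 partner pairs, the nearest about 38 kb from its start. Nanog had 6, with the nearest about 4 kb away, and Klf4 had 9, with the nearest about 1 kb away. That is 0 of 18 partner pairs, and its 95% Wilson interval reaches 17.6%, so a share below 10.9% was not detectable.

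Genes of the extracellular matrix had 4 strong pairs among 52 partner pairs, 7.69% (3.03 to 18.2%), an interval that includes 10.9%. Col1a2 had the pair near its start described above, while Col1a1, the other chain of the same collagen, had 4 partner pairs and no strong one. Fbn1, the fibrillin of elastic microfibrils, had 6 partner pairs inside the gene, and its 1 strong pair, at 1481.1 and 1278.95, lay about 34 kb beyond it. Thbs1, the matricellular protein thrombospondin 1, had 2 strong pairs about 151 and 159 kb below it, with scores of 1415.06 and 1165.29 and of 1767.79 and 1664.31. Fn1, fibronectin, and Col6a3 had 7 and 9 partner pairs, none strong.

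Growth factor genes had 9 strong pairs among 46 partner pairs, 19.6% (10.6 to 33.2%), an interval that includes the 10.9% of all partner pairs. Fgf7, a fibroblast growth factor of stroma, had 5 of 16, all outside the gene. On its low-coordinate side 3 lay about 86, 104 and 111 kb away, and the last of these scored 3100 and 1758.75. On the other side, about 214 and 220 kb away, the pair on chromosome 2 at 126128664 to 126129535 scored 3100 in both lists and its neighbour at 126135546 to 126136357 scored 1942.79 and 2583.62. Csf1, the macrophage growth factor, had 2 strong pairs among 21, about 3 and 34 kb from the gene, with scores of 1090.31 and 1676.57 and of 1034.75 and 2325.52. Vegfa had a second pair about 186 kb away, at 3100 and 1135.7.

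Of the lineage genes, Runx2 had 2 strong pairs among 10, the one near its start and one inside the gene, at 1336.93 and 1051.96. Sox9, the master factor of cartilage, had 1 about 15 kb away, with scores of 1025.13 and 1321.01, just above the limit in replicate 1. Pparg, the master factor of fat cells, had 3 partner pairs, Cebpb 6 and Twist1 1, none strong. In the TGF-beta group, 2 of 38 partner pairs were strong, 5.26% (1.46 to 17.3%), an interval that includes 10.9%. Smad3, a signal transducer of TGF-beta, had 1, about 169 kb away, at 3100 and 1386.7, and Ccn2, connective tissue growth factor, had 1 about 197 kb away, at 1495.05 and 1124.58. Ccn1 had 11 partner pairs and the receptor gene Tgfbr2 had 4, none strong.

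Cell cycle and survival genes had 4 strong pairs among 34, 11.8% (4.67 to 26.6%), beside 10.9% over all partner pairs. Mcl1, a survival protein, had 1 at its far end, with scores of 1474.72 and 1501.58, and 1 about 24 kb away, at 2461.89 and 1681.17. Cdkn1a, the cell cycle inhibitor p21, had 1 about 27 kb upstream, at 1080.89 and 1009.63, close to the limit in both lists. Myc had 1 about 212 kb away, at 1437.12 and 3100. The immediate early genes Fos and Jun had 13 partner pairs and no strong one. The Wilson interval of that share reaches 22.8%, so a share below 10.9% was not detectable. Jun had 4 partner pairs at the gene itself. Tns3, a tensin of focal adhesions, had 2 strong pairs among 14, about 33 and 40 kb beyond its start. Its share of 14.3% (4.01 to 39.9%) has an interval that includes 10.9%. Of the housekeeping genes, Actb had 2 strong pairs among 12 and Gapdh, a glycolytic enzyme, had 2 among 7, all outside the genes. Together 4 of the 19 partner pairs near housekeeping genes were strong, 21.1% (8.51 to 43.3%), an interval that includes 10.9%.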

How the data were processed

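ChIP-seq of HA-tagged NR6A1 was analysed from 2 peak lists, 1 per replicate, so peaks were called per sample. Per the submitters' processing notes, Bowtie 0.12.7, MACS and mm9 were used, with no role stated; the control library and the peak threshold are not given in the sources used here. The deposited score, from 200.01 in replicate 1 and 200.04 in replicate 2, was taken from its range as the log-transformed p-value of MACS, and it depends on the depth and background of its own library. Read depth is unknown. Positions are on mm9, with the first base as 1.

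Pairs were made by longest overlap (Python 3.11.15, numpy 2.4.6, pandas 2.3.3). The code was tested on simulated lists where each peak had at most 1 partner, so the choice among several overlaps was not tested. Wilson intervals of 95% (scipy 1.17.1) cover counting error only. Peaks are not replicates, and no test was run. Chromosome lengths came from GenomeInfoDb 1.38.1 (R 4.3.3). Loci were placed from general knowledge of mm9; of 41 single genes, 36 had a length within 2 kb of that in the GRCm38 gene table, the exceptions being Runx2, Pparg, Tgfbr2, Nr6a1 and Col6a3. No sequence under the peaks was read. Members, loci and limits were chosen with earlier results of these data known. Named regions are the extremes of width, offset, score ratio, spacing and chain size, and the pairs nearest the limit. Other definitions of a partner, score limits and distances were tried.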

Additional observations from a re-analysis of the deposited data

How the results depend on the processing

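Of 70 values under an alternative, 36 stayed within 1.5 times the reported count or within the 95% interval of the reported value, and 34 moved. Stricter limits shrink the set by construction: 429 pairs at 1500 or more, 215 at 2000 or more and 604 in the upper decile of each list, against 998. Near the listed loci there were 19, 9 and 24 strong pairs, against 47. With 1500, 2000 and the upper decile, the median replicate 1 width was 881, 907 and 874 bp. In replicate 2 it was 990 bp at 1500 and 1044 bp at 2000. The share of strong sites with another within 10 kb was 5.40%, 5.61% and 5.49%, against 8.47%. The share of strong pairs over all chromosomes was 4.67%, 2.34% and 6.57%. On chromosome 10 it was 5.35%, 2.60% and 7.34%, each above the overall share in value but with an interval that includes that share. On chromosome 17, added after seeing the data, it was 7.95%, 2.41% and 10.1%, with an interval above the overall share at 1500 and in the upper decile and one that includes it at 2000. On X it was 1.96% at 1500 and 1.96% at 2000. At 2000, 81.4% of midpoints lay within 100 bp.

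Requiring midpoints within 100 bp left a median offset of 30.0 bp, 100.0% within 100 bp by construction, a replicate 2 width of 883 bp and 6.35% with a strong site within 10 kb. A reciprocal overlap of 50% gave 82.5% within 100 bp. Without pairs at 3100 or more, widths were 809 and 883 bp and 6.49% had a strong site within 10 kb. With the full set of strong sites, the share with another was 5.04% within 5 kb and 20.5% within 50 kb. From the full set of strong pairs, 30 lay within 100 kb of the loci. Using mutual longest overlaps moved no value.

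No paired analysis was possible because the results come from no test between groups; the vector libraries were not analysed here. Leaving out a replicate leaves no pair. Read depth is unknown, and its part in which peaks passed the limit was not tested. For the other values that moved, the cause was not tested.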
